A study of Mus musculus with 6 samples.

Results

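The Hox genes of the mouse encode homeodomain transcription factors and lie in 4 clusters, Hoxa, Hoxb, Hoxc and Hoxd, in which genes of the same number are paralogs. They were chosen by their symbol, a cluster letter and a paralog number after Hox, and 39 of the 57010 genes in the count table met this rule. Their RNA was read in monocytes from the marrow of C57BL/6 mice (C57Bl/6J in the study's methods) 1 year old. The 3 libraries S13, S15 and S18 came from femur-derived monocytes and the 3 libraries S16, S19 and S23 from mandibular-derived monocytes, and the labels name no treatment or transgene for either. Monocytes, which can become osteoclasts, were obtained by negative selection, with other marrow cells retained by antibodies on magnetic beads, so RNA of cells that escaped the antibodies can be present. All 12 monocyte markers listed, such as Csf1r and Ccr2, had counts in every library. The study used mice of both sexes. The sex and the animal of each library were not given in the sources used here, and the p-values therefore measure only the spread between these libraries.

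In the embryo, Hox genes are switched on along the body axis in the order of their paralog number. Low numbers act towards the hindbrain and high numbers towards the tail and the ends of the limbs, and a cell's descendants can keep the pattern of their position. The skeleton of the jaw forms from neural crest cells of the first pharyngeal arch, which do not switch on Hox genes, whereas the femur forms from limb mesoderm, where Hoxa and Hoxd genes of high number pattern the bones. Blood cells use Hox genes in another way. Hoxa and Hoxb genes of the middle numbers are active in stem and progenitor cells and are turned down as the cells mature, and Hoxb4 and Hoxa9 are known for promoting the renewal of such cells. The comparison of femur and mandible asks whether monocytes from a bone of the limb and a bone of the jaw carry different Hox RNA.

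On GRCm38, the Hoxa cluster with 11 genes lies on chromosome 6 and the Hoxb cluster with 10 genes on chromosome 11 from 96194316 to 96368256. The Hoxc cluster with 9 genes lies on chromosome 15 from 102921103 to 103036852, and the Hoxd cluster with 9 genes on chromosome 2 from 74668310 to 74765142. The promoters of 3 genes are printed to show the span of the family in these libraries, those of Hoxb4, which had the most counts, of Hoxa9, the posterior gene found in every library, and of Hoxd13, which had no count in any. Each is the 250 bases before the RefSeq start site on GRCm38.p6, read 5′ to 3′ on the gene's strand, with every CG dinucleotide (CpG), the site of DNA methylation, in capitals. The Hoxb4 sequence is chr11:96318017-96318266 on the plus strand, the Hoxa9 sequence is chr6:52227371-52227620 on the minus strand, and the Hoxd13 sequence is chr2:74667975-74668224 on the plus strand.
Hoxb4: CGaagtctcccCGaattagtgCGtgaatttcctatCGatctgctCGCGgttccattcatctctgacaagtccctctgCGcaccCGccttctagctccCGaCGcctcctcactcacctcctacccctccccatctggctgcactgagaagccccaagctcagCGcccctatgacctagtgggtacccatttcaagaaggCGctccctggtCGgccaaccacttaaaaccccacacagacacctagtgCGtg
Hoxa9: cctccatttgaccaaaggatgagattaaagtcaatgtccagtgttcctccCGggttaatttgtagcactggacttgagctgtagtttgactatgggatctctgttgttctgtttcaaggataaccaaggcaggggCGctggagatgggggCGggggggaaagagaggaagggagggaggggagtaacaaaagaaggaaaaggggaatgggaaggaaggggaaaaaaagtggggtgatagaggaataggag
Hoxd13: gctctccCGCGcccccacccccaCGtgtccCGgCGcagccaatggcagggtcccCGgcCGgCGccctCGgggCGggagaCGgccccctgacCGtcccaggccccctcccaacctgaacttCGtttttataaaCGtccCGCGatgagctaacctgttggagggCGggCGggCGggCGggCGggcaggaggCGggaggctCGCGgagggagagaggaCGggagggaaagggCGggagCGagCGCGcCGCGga

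The Hoxb4 promoter held 14 CpG and was 58.0% G and C, and 70.6% of the 32851 promoters in the RefSeq table held fewer CpG. The Hoxa9 promoter held 3 CpG, with 29.0% of all promoters below it, and the Hoxd13 promoter 31, with 94.8% below it. The start site used for Hoxb4 and Hoxa9 is that of Hoxb4-201 and Hoxa9-201 in GENCODE M21, whereas that of Hoxd13 lies 85 bases from the start of Hoxd13-201. Of the 39 Hox genes, 22 had a RefSeq promoter, with 24 start sites in all, and their median was 12.5 CpG against 6.0 over all promoters. Short motifs were searched on both strands in the same 250 bases. The motif of NF-Y, CCAAT, was in 58.3% of the Hox promoters and 33.8% of all promoters. An E-box, read as CACGTG, was in 16.7% of the Hox promoters and 6.02% of all promoters. A site of Hox proteins with their Pbx partners, read as TGATNNAT, was in 16.7% of the Hox promoters and 7.68% of all promoters. Of the 3 printed promoters, that of Hoxd13 held the NF-Y motif and the E-box, which do not overlap, and the other 2 held none of these motifs.

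Femur library S15 stood apart from the rest over all genes. The libraries held 15718782 to 25371474 counts on genes, and S15 held 19808090. In S15, 40494 of the 57010 genes (71.0%) had at least 1 count, whereas the other 5 libraries had a count in 17481 to 23513 genes. S15 was the only library with a count for 13454 genes, against 77 to 417 genes for each other library. Values that rest on S15 are therefore given with and without it.

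S15 also had a count in the most Hox genes, but the other 5 libraries varied more in their share of Hox genes than of all genes. In the femur, 14 of the 39 Hox genes had a count in S13, 34 in S15 and 9 in S18, and in the mandible 4 had a count in S16, 10 in S19 and 3 in S23. S15 thus held more than the other 5 libraries, and without it both groups ranged over few genes, with S19 between the other femur libraries. Of the 39 genes, 15 had a count in S15 only, with a median of 6 counts and a range of 1 to 23. Among all genes as long as the Hox genes (874 to 6014 bases in the table) that had no count outside S15, 67.2% of 10725 had a count in S15. Those 7211 genes had a median of 2.94 counts per kb there (quartiles 1.39 and 5.60), and the 15 Hox genes a median of 3.95. The low counts over the Hox clusters in S15 were thus of the size of those over other genes that no other library detected.

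**Figure D1:**
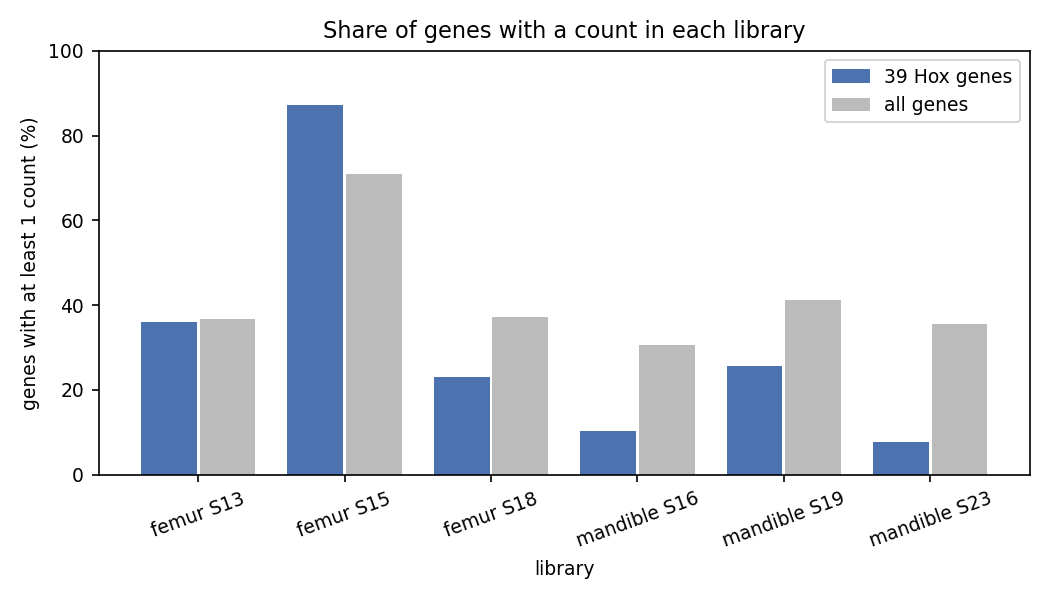
Percent of genes with at least 1 count in each library, for the 39 Hox genes and for all 57010 genes. Femur S15 reaches 87.2% of the Hox genes and 71.0% of all genes. In the other 5 libraries the Hox share lies between 7.69% and 35.9% and that of all genes between 30.7% and 41.2%.

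Counts on the 39 genes together were 274 in S13, 664 in S15 and 181 in S18 in the femur, and 334 in S16, 222 in S19 and 79 in S23 in the mandible. Per 1000000 counts on genes, this was 5.03 to 33.5 counts for the whole family. Hoxb4, Hoxa7 and Hoxa9 took most of them, between 70.1% and 92.4% in the libraries other than S15 and 43.1% in S15. Only Hoxb4 and Hoxa9 had a count in all 6 libraries, and Hoxa7 in 5. No count was found in any library for Hoxa11, Hoxc13, Hoxd9 and Hoxd13, all of them posterior paralogs (9 to 13), and 20 of the 39 genes had a count outside S15. Levels are given in CPM, counts per 1000000 after the library sizes were scaled by TMM, edgeR's trimmed mean of M values. Where no count was found, a level of up to 3 counts is still possible, or 0.132 to 0.171 CPM here, as far as counting error goes.

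**Figure D2:**
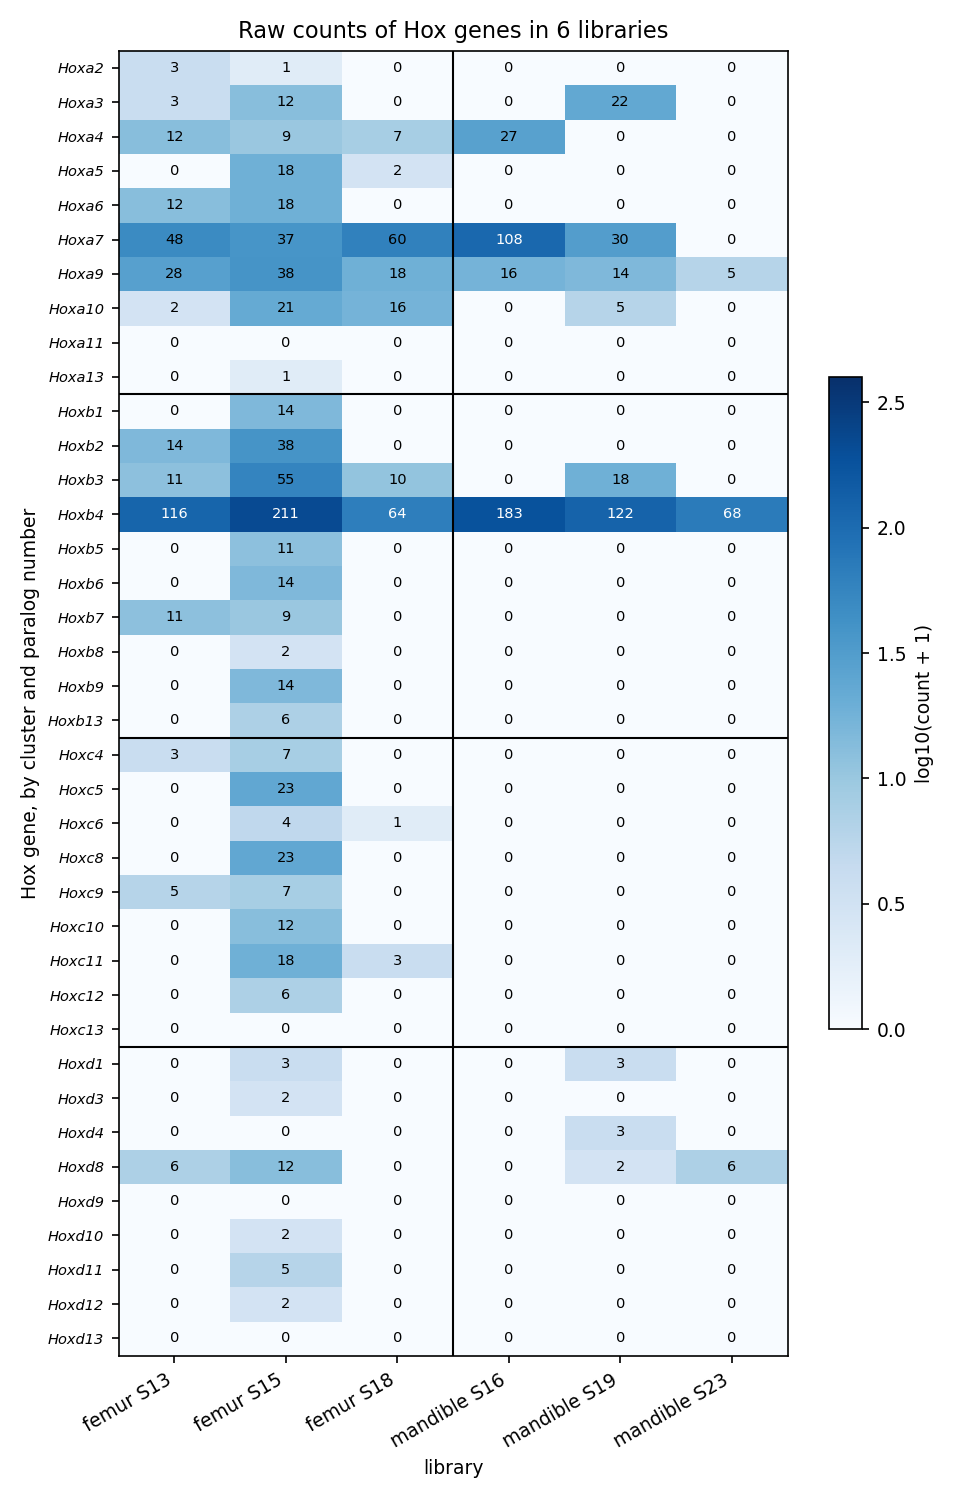
Raw counts of Hox genes (rows, by cluster and paralog number) in the 3 femur and 3 mandible libraries (columns), with color for log10(count + 1). Hoxb4, Hoxa7 and Hoxa9 carry most counts, Hoxc has no count in the mandible, and femur S15 has counts in most genes.

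Of the 39 genes, 4 had enough counts for edgeR's quasi-likelihood test, namely Hoxb4, Hoxa7, Hoxa9 and Hoxb3. With Benjamini-Hochberg adjustment, 0 of these 4 were called, that is, had an adjusted p under 0.05 and a change of at least 2-fold, against 5.18% of all 18114 tested genes (3.88% called higher and 1.30% called lower in the mandible). No Hox gene had an unadjusted p under 0.05 in this test, against 16.4% of all tested genes, and DESeq2 and limma-voom also called 0 of the 4. Without S15, 0 of 5 tested Hox genes were called by edgeR, against 8.35% of 18742 tested genes. The 3 libraries of the femur and the 3 of the mandible overlapped for each of the 4 tested Hox genes. They did not overlap in 24.2% of all tested genes, a share that 4 genes are too few to be set against. The untested Hox genes overlapped as well, but 19 of them had no count outside S15 and could not have separated. In bulk RNA, fewer cells of a type and less RNA per cell cannot be told apart, which holds for every level given here.

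Hoxb4, which supports renewal of hematopoietic stem cells, had the most counts of the family in every library. It had 116, 211 and 64 counts in femur S13, S15 and S18 and 183, 122 and 68 counts in mandible S16, S19 and S23, or 50.7% of the Hox counts outside S15. Scaled, this was 6.40, 9.62 and 2.82 CPM in femur libraries and 9.15, 5.78 and 3.87 in the mandible, so that the groups overlapped over nearly their whole range. The means were 6.28 ± 3.40 and 6.27 ± 2.67 CPM (SD, n = 3 each), a log2 change (mandible over femur) of -0.01 with a 95% interval of -1.37 to 1.36 (adjusted p = 0.997, edgeR). Without S15 the log2 fold change was 0.40, with an interval of -1.19 to 1.99 (adjusted p = 0.849, edgeR). Both intervals hold changes of 2-fold in either direction. Per kb of gene length, Hoxb4 was the highest Hox gene in 6 of 6 libraries, from 1.10 to 3.75 CPM per kb, and its mean was 3.06 times that of Hoxa7, the next gene. The Hoxb4 gene lies on chromosome 11 from 96318267 to 96321638, and no exon of another gene overlaps its exons.

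Hoxa7, a central paralog active in blood progenitors and in leukemias driven by MLL fusions, was spread most widely in the mandible. It had 48, 37 and 60 counts in the femur (S13, S15 and S18) and 108, 30 and 0 counts in the mandible (S16, S19 and S23). The mandible thus held both the highest and the lowest library. The means were 2.33 ± 0.554 CPM in femur libraries and 2.27 ± 2.80 CPM in mandible libraries (SD, n = 3 each), with a log2 change of -0.04 (95% interval -3.01 to 2.94, adjusted p = 0.994, edgeR). Hoxa7 shares exon bases with Hoxaas3, a transcript of the other strand, which had 49 counts in S16, 10 in S15, 9 in S19 and 0 elsewhere. Whether reads were counted by strand is not given in the sources used here, and reads of the pair cannot be told apart without it.

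Hoxa9, a posterior paralog that keeps myeloid progenitors dividing and is a central gene of myeloid leukemia, had 28, 38 and 18 counts in the femur and 16, 14 and 5 in the mandible. In CPM, the femur libraries were at 1.54, 1.73 and 0.794 and the mandible libraries at 0.800, 0.663 and 0.285. The highest mandible library lay just above the lowest femur library, so the groups overlapped in a single pair. The means were 1.36 ± 0.497 and 0.583 ± 0.267 CPM (SD, n = 3 each), with a log2 change of -1.21 (standard error 1.36, 95% interval -4.20 to 1.77, adjusted p = 0.768, edgeR). Without S15 it was -1.04 (adjusted p = 0.836, edgeR), and no setting tried turned its direction.

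Hoxb3, an anterior paralog that patterns the hindbrain, had 11, 55 and 10 counts in the femur and 0, 18 and 0 in the mandible. S15 was highest, and mandible S19 lay above the 2 other femur libraries. The means were 1.19 ± 1.15 and 0.284 ± 0.493 CPM (SD, n = 3 each), with a log2 change of -2.04 (95% interval -6.35 to 2.29, adjusted p = 0.719, edgeR), or -0.90 without S15 (adjusted p = 0.910, edgeR). The fitted value against libraries at 0 depends on the prior count of the fit and is no bound.

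**Figure D3:**
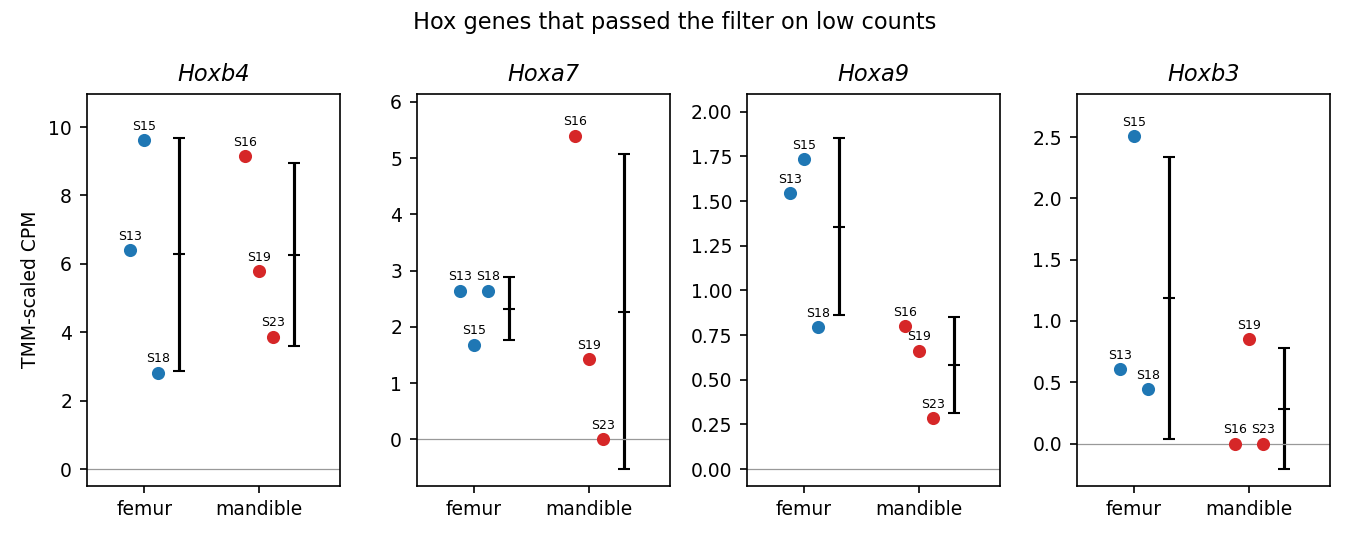
TMM-scaled CPM of Hoxb4, Hoxa7, Hoxa9 and Hoxb3 in each femur and mandible library (points), with the mean and SD of each group (bars, n = 3). The groups overlap in all 4 genes, and Hoxa7 runs from 0 to 5.40 CPM within the mandible.

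The other Hoxa genes were found in few libraries. Hoxa4, a central paralog, had 12, 9 and 7 counts in the femur and 27, 0 and 0 in the mandible, where the single library with counts was above every femur library. Tested only when S15 was left out, it had a log2 change of -0.16 (adjusted p = 0.984, edgeR). Hoxa10, which patterns the thigh segment of the limb and is active in myeloid progenitors, had 2, 21 and 16 counts in the femur and 5 in S19 as its only mandible counts. Hoxa3, a gene of the third pharyngeal arch and its glands, had 3 counts in S13, 12 in S15 and 22 in S19, the highest value. Hoxa6 had 12 counts in S13 and 18 in S15, Hoxa5 had 18 in S15 and 2 in S18, and neither had a mandible count. Hoxa2 and Hoxa13 stayed under 10 counts in every library, and Hoxa11, which patterns the forearm and shin, had none.

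In the Hoxb cluster, only Hoxb2, Hoxb3, Hoxb4 and Hoxb7 had a count outside S15, whereas all 10 members had one in S15. Hoxb2, another hindbrain gene, had 14 counts in S13, 38 in S15 and 0 in the other 4 libraries, and its exons share bases with the antisense transcript Hoxb3os. With every counted gene in the test, it was the only one of 35 Hox genes with an unadjusted p under 0.05, and 0 of the 35 were called (edgeR). Hoxb7 had 11 counts in S13, 9 in S15 and 0 elsewhere. Hoxb1, Hoxb6 and Hoxb9 had 14 counts each and Hoxb5 had 11, all in S15.

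The Hoxc cluster, whose members pattern the trunk and limbs, was found in femur libraries only, with 8 counts in S13, 100 in S15 and 4 in S18 against 0 in each mandible library. S15 thus held 100 of the 112 counts. Against 3 counts over the mandible group, the summed Hoxc level was at least 34.9-fold lower in the mandible. It was at least 5.75-fold lower when S15 was left out and 12 femur counts remained. Such bounds cover counting error in the group at 0 only, and not the spread between libraries. Hoxc5 and Hoxc8 had 23 counts each, Hoxc11 had 18 and Hoxc10 had 12 in S15. Outside S15 the Hoxc counts were 5 on Hoxc9, 3 on Hoxc4, 3 on Hoxc11 and 1 on Hoxc6.

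The Hoxd cluster, which patterns the limb and the digits, had 6, 26 and 0 counts in the femur and 0, 8 and 6 in the mandible, and the groups overlapped. Hoxd8 carried most of them, with 6 and 12 in S13 and S15 and 2 and 6 in S19 and S23. Of the posterior members, which act in the growing limb, Hoxd10, Hoxd11 and Hoxd12 had 2, 5 and 2 counts in S15 only, and Hoxd9 and Hoxd13 had none. Of the anterior members, Hoxd1 had 3 counts in S15 and 3 in S19, and Hoxd3 had 2 in S15. Hoxd4 had 3 counts in S19 and none elsewhere, and its exons overlap those of Hoxd3 on the same strand.

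Summed over the family, the level was 15.1, 30.3 and 7.99 CPM in femur libraries and 16.7, 10.5 and 4.50 CPM in mandible libraries. The groups overlapped, and the ratio of the means was -0.75 on the log2 scale with S15 and -0.13 without it. The Hoxa sum was 5.96, 7.48 and 4.54 CPM in femur libraries and 7.55, 3.51 and 0.285 CPM in mandible libraries. The Hoxb sum was 8.38, 17.1 and 3.27 CPM against 9.15, 6.63 and 3.87 CPM, and its log2 ratio was -0.55 with S15 and 0.17 without it. With Hoxb4 left out, the log2 ratio of the Hoxb sum was -3.53. The counts were then 36, 163 and 10 in femur S13, S15 and S18 and 0, 18 and 0 in mandible S16, S19 and S23. This ratio thus rested mostly on S15, and S19 lay above S18. Neither the Hoxa sum nor the Hoxb sum, with or without Hoxb4, separated the groups. Outside S15, Hoxa and Hoxb genes took 441 and 617 of the 1090 Hox counts, and Hoxc and Hoxd genes 12 and 20. These sums were given no test, since they add genes chosen with earlier results known.

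The paralogs were then split by position into anterior (paralogs 1 to 3, 8 genes), central (4 to 8, 15 genes) and posterior (9 to 13, 16 genes). The central genes held most of the counts, 891 of the 1090 counts outside S15, and their sum was 11.5, 18.2 and 5.91 CPM in femur libraries and 15.9, 7.44 and 4.21 CPM in mandible libraries. The anterior sum was 1.71, 6.11 and 0.441 CPM in femur libraries and 0, 2.18 and 0 CPM in mandible libraries. Both classes overlapped between the groups, and the log2 ratio of the means was -0.37 for the central genes (0.08 without S15 and -1.02 without S16) and -1.92 for the anterior genes (-0.57 without S15).

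The posterior sum was lower in every mandible library than in every femur library, at 1.93, 6.02 and 1.63 CPM in femur libraries and 0.800, 0.900 and 0.285 CPM in mandible libraries. The means were 3.19 ± 2.45 and 0.662 ± 0.33 CPM (SD, n = 3 each), a log2 ratio of -2.27, or -1.43 without S15. With posterior read from paralog 10 the log2 ratio was -4.17. The counts were then 2, 73 and 19 in femur S13, S15 and S18 and 0, 5 and 0 in mandible S16, S19 and S23. That narrower sum rested mostly on S15, and its groups overlapped, with S19 above S13. Besides the Hoxc sum, the posterior sum from paralog 9 was the only one of the 7 cluster and class sums whose groups did not overlap, as in 24.2% of all tested genes. It rested on few members. Hoxa9 and Hoxa10 gave nearly all posterior counts outside S15, with Hoxc9 and Hoxc11 adding 5 and 3, and all 40 mandible counts were on Hoxa9 and Hoxa10.

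As a share of a library's own Hox counts, which does not depend on the scaling, the posterior genes took 12.8% (95% Wilson interval 9.33 to 17.2) in S13, 19.9% (17.0 to 23.1) in S15 and 20.4% (15.2 to 26.9) in S18. In the mandible they took 4.79% (2.97 to 7.64) in S16, 8.56% (5.55 to 13) in S19 and 6.33% (2.73 to 14.0) in S23. The lowest femur share lay above the highest mandible share, although their intervals overlapped, and the intervals cover counting error only. The share also depends on Hoxb4, which took 31.8 to 42.3% of the Hox counts in femur libraries and 54.8 to 86.1% in mandible libraries. With Hoxb4 left out, the posterior share was 22.2, 29.1 and 31.6% in the femur and 10.6, 19 and 45.5% in the mandible, and the groups overlapped, with S23 resting on 11 counts. With only paralogs 10 to 13 called posterior, the share was 0.730, 11.0 and 10.5% in the femur and 0, 2.25 and 0% in the mandible, and the groups overlapped as well.

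**Figure D4:**
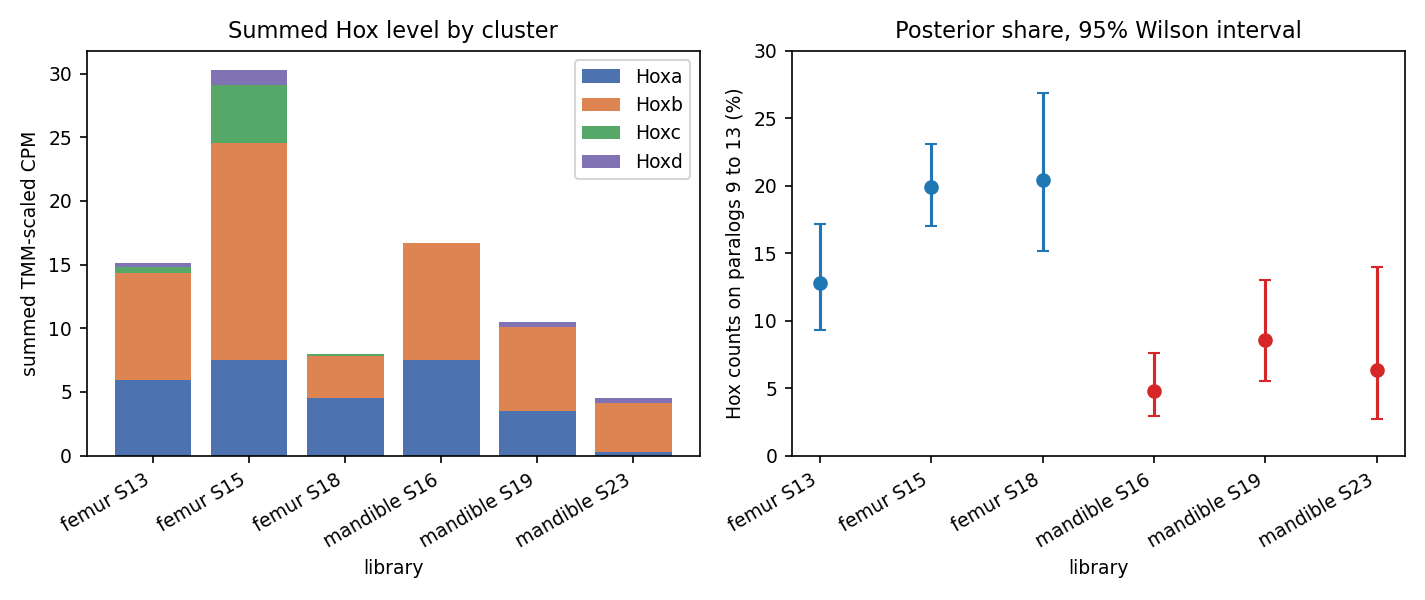
Left, summed TMM-scaled CPM of the Hoxa, Hoxb, Hoxc and Hoxd genes in each library (stacked bars). Right, percent of each library's Hox counts on paralogs 9 to 13 with 95% Wilson intervals, with shares of 12.8 to 20.4% in femur libraries against 4.79 to 8.56% in mandible libraries.

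The clusters also hold antisense and noncoding transcripts, of which 16 were listed and 1 had enough counts for the test. Hoxb3os, antisense to Hoxb3 and Hoxb2 on chromosome 11, had 13, 37 and 39 counts in the femur and 0 in each mandible library, so that the groups did not overlap. Its level was 0.717, 1.69 and 1.72 CPM in the femur. Against 3 counts over the mandible group it was at least 27.8-fold lower in the mandible, or at least 24.9-fold without S15. These bounds, too, leave out the spread between libraries. Hoxb3os was not called (unadjusted p = 0.00752, adjusted p = 0.100, edgeR), nor without S15 (adjusted p = 0.153, edgeR). Hoxb3 itself followed another order, since S18 had the most Hoxb3os counts and the fewest femur counts of Hoxb3. Hotairm1, in the Hoxa cluster and known from maturing myeloid cells, had 5, 18 and 4 counts in the femur and 28, 0 and 1 in the mandible. Hotair, in the Hoxc cluster, had 7 counts in S15 only. Hoxd3os1 and the 6 microRNA genes of the list (Mir10a, Mir10b, Mir196a-1, Mir196a-2, Mir196b and Mir615) were at 0 in all libraries. The 6 ParaHox genes, the sister cluster of homeobox genes to which Cdx1, Cdx2, Cdx4, Pdx1, Gsx1 and Gsx2 belong, had no count outside S15, where 4 of them had a few, and none could be tested.

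The TALE homeodomain proteins of the Pbx, Meis and Pknox families bind DNA beside Hox proteins and set which sites they find. All 9 genes had counts in both groups, 8 were tested, and 0 were called in either direction by edgeR, DESeq2 or limma-voom, with 0 at an unadjusted p under 0.05 in each. Of all tested genes, 3.88% were called higher and 1.30% lower by edgeR, and 16.4% had an unadjusted p under 0.05. The counts in this list and those that follow are to be read against these shares. Their summed level was 107.4 to 150.1 CPM in femur libraries and 111.3 to 144.3 CPM in mandible libraries. Of the 8, 4 lay above 0, and the median log2 fold change was -0.05, against -0.04 over all tested genes. Meis1, which acts with Hoxa9 in progenitors and leukemia, was at 15.7 ± 5.55 CPM in femur libraries and 11.5 ± 4.28 CPM in mandible libraries (SD, n = 3 each, log2 fold change -0.45, adjusted p = 0.709, edgeR). Pbx2, Pbx3, Meis3, Pknox1 and Pknox2 had log2 changes of -0.41, 0.50, 0.93, -0.36 and 0.26.

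Pbx4 was the only tested cofactor whose groups did not overlap, as in 24.2% of all tested genes, with 1.60, 3.42 and 0.618 CPM in femur libraries and 0.500, 0.237 and 0.285 CPM in mandible libraries. Its log2 fold change was -2.45, or -1.73 without S15, and it was not called (adjusted p = 0.454, edgeR, and 0.710 without S15). Meis2 was not tested, with 5, 35 and 0 counts in the femur and 19, 0 and 0 in the mandible.

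A pair of groups of chromatin regulators set whether Hox clusters are open. The trithorax side, with MLL (Kmt2a) and its partners, keeps Hox genes on, and the polycomb side keeps them off. Of 15 trithorax and MLL genes, all tested, 0 were called higher and 1 lower, and 6 lay above 0 with a median log2 change of -0.05. Kmt2a, Aff1 and Aff4, the 3 of highest mean CPM, differed by log2 changes of 0.31, 0.04 and 0.46 (adjusted p = 0.756, 0.972 and 0.410, edgeR). Of 20 polycomb genes and their antagonists, all tested, 0 were called and 13 lay above 0, with a median of 0.20. Of these, 2 had an unadjusted p under 0.05, and DESeq2 and limma-voom also called none. Jarid2, Ezh2 and Kdm6b had log2 changes of 0.23, -0.23 and 0.67 (adjusted p = 0.778, 0.797 and 0.182, edgeR).

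The called gene was Dpy30, a core subunit shared by the MLL and SET1 methyltransferase complexes. It was at 81.7, 49.4 and 71.6 CPM in femur libraries and 14.5, 22.2 and 16.6 CPM in mandible libraries. Every mandible library was below every femur library, and the level fell by 1.93 on the log2 scale (standard error 0.30, adjusted p = 0.00342, edgeR), or by 2.15 without S15. Wdr5, Ash2l and Rbbp5, which share the same complexes, had log2 changes of -0.29, -0.19 and -0.24 and were not called (adjusted p = 0.668, 0.817 and 0.734, edgeR).

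Of 16 protein genes that flank the clusters, 14 were in the table under the listed symbol, 10 were tested, 1 was called higher and 0 lower, and 3 lay above 0 (median log2 fold change -0.24). The called gene was Calcoco1, a receptor of selective autophagy beside the Hoxc cluster, which rose from 16.5 ± 2.66 to 40.7 ± 5.76 CPM (SD, n = 3 each), a log2 change of 1.30 (standard error 0.29, adjusted p = 0.0254, edgeR), or 1.14 without S15 (adjusted p = 0.0432, edgeR). Those of highest mean CPM were Skap2 near Hoxa, Cbx5 near Hoxc and Atf2, which lies on the Hoxd chromosome with other listed genes between. Skap2, Cbx5 and Atf2 had log2 changes of -0.23, -0.25 and -0.02 (adjusted p = 0.782, 0.749 and 0.988, edgeR). These 3 genes had counts in every library, with Cbx5 at 175.6 ± 35.3 CPM in femur libraries and 147.6 ± 26.3 CPM in mandible libraries (SD, n = 3 each).

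Some other genes that mark position in the embryo were called between the bones. Of 16 genes that pattern the jaw (the Dlx, Msx and Alx families and others), 12 were tested, and 6 were called higher in the mandible and 0 lower. A gene passes the filter on low counts through the bone in which it is high, so the counts here describe the tested members and not the whole list. Of the 4 that were not tested, Otx2 and Hand1 had 8 counts each in S15 and none in the mandible. Barx1 had 0, 5 and 0 counts in the femur and 5, 42 and 36 in the mandible. Gsc had 0, 4 and 0 counts in the femur and 0, 13 and 3 in the mandible. Without S15, 9 of 13 tested were called higher, Dlx2 and Msx2 among them. Dlx3, which also acts in teeth and hair, had 0, 7 and 0 counts in the femur and 484, 337 and 412 in the mandible. Dlx5, which helps give the lower jaw its identity, had 0, 5 and 4 counts against 124, 142 and 390. Msx1, of jaw and tooth mesenchyme, had 0, 1 and 0 against 155, 147 and 258. Alx1 and Dlx1 were likewise at 9 counts or fewer in each femur library and at 75 or more in each mandible library. Alx4 was at 0.857 ± 0.720 CPM in femur libraries and 12.1 ± 6.36 CPM in mandible libraries (SD, n = 3 each), a log2 change of 3.80 (standard error 0.77, adjusted p = 0.0142, edgeR), or 4.72 without S15 (adjusted p = 0.00406, edgeR). All 6 called genes were higher in each mandible library than in each femur library.

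Of 15 genes that pattern limb buds, 14 were in the table, 8 were tested, and 2 were called higher in the mandible and 0 lower, again counts over tested members alone. Of the 8 tested, 7 lay above 0 and 5 had an unadjusted p under 0.05 (edgeR). Both called genes, Hand2 and Tbx2, are also active in the embryonic jaw. Hand2 had 0, 9 and 0 counts in the femur and 553, 433 and 472 in the mandible (log2 fold change 7.40, adjusted p = 0.00102, edgeR). Without S15 the femur was at 0 (adjusted p = 7.17e-05, edgeR). Against 3 counts over the femur group, Hand2 was then at least 338-fold higher in the mandible, as far as counting error goes. Tbx2 had 14, 18 and 0 counts against 195, 158 and 219 (log2 fold change 4.21, adjusted p = 0.0418, edgeR, and 4.66 with 0.0410 without S15). Tbx3 had 0, 37 and 0 counts against 81, 138 and 260, and was called without S15 (adjusted p = 0.00284, edgeR) but not with it (adjusted p = 0.186, edgeR). Of the members not tested, Lmx1b, which gives limbs their upper side, had 3, 45 and 3 counts in the femur and 0, 4 and 0 in the mandible. Emx2 had 17 counts in S15 and 6 in S19, and Lhx9 had 10 in S15 and 1 in S19. En1 had femur counts in S15 only and 21 counts over the mandible libraries. Tbx5, the forelimb gene, had 14 and 12 counts in S13 and S15 and none in the mandible, and Tbx4, the hindlimb gene, had 26 counts in S15, 5 in S19 and 44 in S23.

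**Figure D5:**
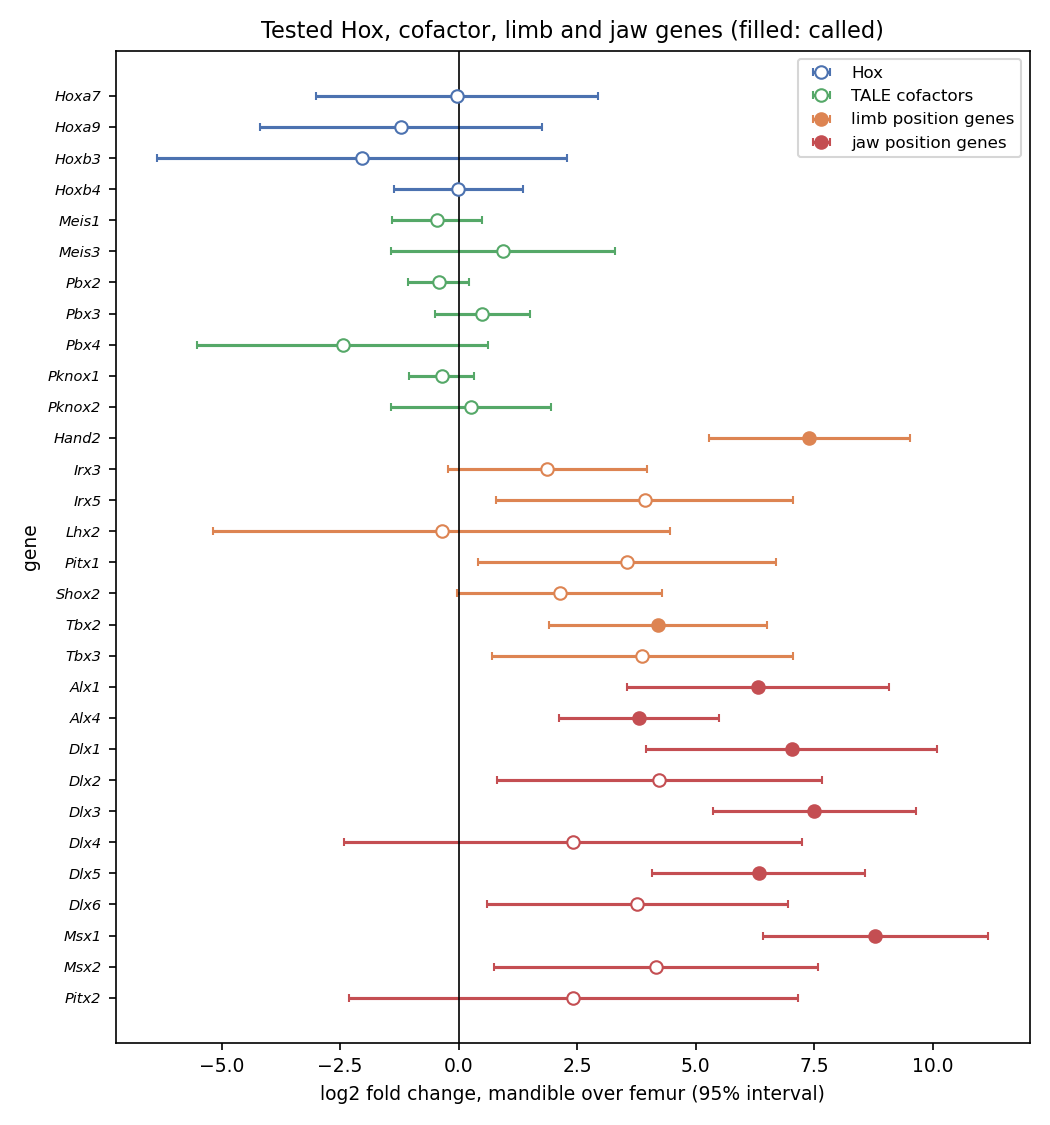
Log2 fold change, mandible over femur, with 95% intervals for tested Hox genes, TALE cofactors, limb genes and jaw genes (filled points, called by edgeR). The Hox genes and cofactors shown have intervals that cover 0, and the 8 called genes are limb and jaw genes higher in the mandible.

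Markers of other cell types were read beside these values, and lists of B lineage, T and NK, chondrocyte and endothelial markers are left out. Monocyte markers were at a summed 7166 to 13330 CPM in femur libraries and 6378 to 10710 CPM in mandible libraries, with 0 of 12 called by edgeR, 2 at an unadjusted p under 0.05, and 1 called without S15. Markers of stem and progenitor cells, where Hoxb4, Hoxa7 and Hoxa9 are known to act, summed to 88.8 to 159.5 CPM in femur libraries and 85.4 to 150.5 CPM in mandible libraries, and 0 of 10 tested were called with or without S15, with 2 at an unadjusted p under 0.05. Granulocyte progenitor markers summed to 1112 to 5603 CPM and 763 to 2086 CPM, with 1 of 8 called lower, or 6 without S15. Neutrophil markers summed to 3006 to 29350 CPM in femur libraries and 3432 to 8799 CPM in mandible libraries, with 1 of 8 called lower, or 4 without S15. In S13 and S18 the neutrophil sums, 29350 and 19570 CPM, were above the monocyte sums, 9555 and 13330 CPM. Of the megakaryocyte markers, 6 of 7 tested were called lower in the mandible with or without S15 (summed 553.5 to 893 CPM in femur libraries and 73.3 to 106 CPM in mandible libraries), and of the erythroid markers 3 of 8, or 5 without S15 (206.5 to 1461 and 92.9 to 171 CPM). The called genes of the granulocyte progenitor, megakaryocyte and erythroid lists, the posterior Hox sum and Hoxb3os all had a lower mean in the mandible. Ms4a3, the called granulocyte progenitor gene, overlapped between the groups, at 24.5 CPM in femur S15 and 27.6 CPM in mandible S19. The posterior sum was highest in S15, where the sums of these lists were the lowest of the femur. The part of any of these cells in the Hox levels was not tested. Among cells of bone and its surroundings, 9 of 12 mesenchymal and osteoblast markers were called higher and 0 lower, and 10 lay above 0. Without S15, 9 were called higher and 1 lower. The list summed to 332 to 421 CPM in femur libraries and 7463 to 11670 CPM in mandible libraries. Of the epithelium and enamel markers 5 of 7 were called higher (8.44 to 12 and 5759 to 11230 CPM), and of the skeletal muscle markers 7 of 7 tested (3.22 to 20.8 and 1109 to 3759 CPM). No marker of these 3 lists was at 0 in every library of a group. The summed levels of these lists were higher in each mandible library than in each femur library, as were the called jaw and limb genes. Within the femur the orders differed, since the jaw sum was highest in S15 (7.98 CPM) and the mesenchymal sum lowest there. The part of these cells in the difference between the bones was not tested. The summed Hox level lay within the femur range of 7.99 to 30.3 CPM in mandible S16 and S19 and below it in S23. The upper end was S15. Without it the femur range was 7.99 to 15.1 CPM, and S16, at 16.7 CPM, lay above it.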

How the data were processed

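Per the methods and the submitters' processing notes, paired-end reads were trimmed (Trimmomatic), aligned (HISAT2 2.1.0) to GRCm38 and assigned to genes with featureCounts. The authors deposited raw counts per gene and library. The use of strand and of reads with several positions is not given in the sources used here. The table's intervals lay inside the GENCODE M21 gene for 0 of the 39 Hox genes, so the positions printed are those of M21, joined on the Ensembl identifier. The deposited gene length, another column of the authors' table, was used for levels per kb.

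The test was edgeR 4.0.16 in R 4.3.3, over all genes that passed filterByExpr (minimum count 10, minimum total 15), with TMM scaling, the quasi-likelihood test and Benjamini-Hochberg adjustment, with the femur as baseline and no covariates. Genes were called at an adjusted p under 0.05 and a change of at least 2-fold, and standard errors and intervals were derived from the log2 fold change and its F statistic. Levels are counts divided by the TMM-scaled library size and multiplied by 1000000. Libraries held 15718782 to 25371474 counts. The alternatives were DESeq2 1.42.0, limma-voom (limma 3.58.1), RLE or no size factors, other filters, a loess correction for gene length (span 0.4) and each library left out. The edgeR fit was tested on simulated data. That simulation had no library like S15 and changed no gene with few counts, so it does not cover such cases. The Hox genes, the gene lists and the tests were chosen with earlier results of these data known. Hox genes with at least 10 counts in some library, tested cofactors, called list genes and the 3 list genes of highest mean CPM were named. Wdr5, Ash2l, Rbbp5, Hoxaas3, Hotairm1, Hotair, Tbx4, Tbx5, Lmx1b, Emx2, Lhx9, En1, Otx2, Hand1, Barx1, Gsc, Dlx2, Msx2 and Ms4a3 were named after their values were seen. A few other members are left out of the text and figures by name.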

Additional observations from a re-analysis of the deposited data

How the results depend on the processing

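No paired analysis was possible because the animal of each library was not given in the sources used here. Whether femur and mandible libraries came from the same mice is not known, and any such pairing was ignored. No Hox gene and no TALE cofactor was called under any of the 14 alternatives, and Dpy30 was called under all of them. The number of tested Hox genes ranged from 1 to 35, so most of these zeros rest on 1 to 9 genes. At an unadjusted p under 0.05 there were 2 Hox genes without femur S18, 1 without mandible S19, 1 with every counted gene in the test, and 0 otherwise, and 2 cofactors after length correction, 1 without femur S13 and 0 otherwise. Of all genes, 938 were called, against 1547 with DESeq2, 1590 with every counted gene in the test, and 434 to 1565 with a library left out (509 without S13, 1565 without S15, 552 without S18, 434 without S19 and 551 without S23). The log2 fold change of Hoxb4 crossed 0, at 0.005 with DESeq2, 0.12 with limma-voom, 0.005 with RLE factors, 0.012 without factors and 0.133 after length correction, and from -0.373 to 0.399 with a library left out. That of Hoxa7 was -1.76 with limma-voom, 0.018 without factors and 0.084 after length correction, and -1.684 to 0.491 with a library left out. Hoxa9 and Hoxb3 (-3.42 with limma-voom) stayed below 0, from -1.495 to -0.946 and from -7.606 to -0.904 with a library left out. The posterior share differed by -11.14 percentage points (mandible minus femur), by -13.59 to -9.79 with a library left out, by -6.66 from paralog 10, and by -2.60 without Hoxb4. Without Hoxb4, 11 Hox counts were left in S23. Low counts limit the comparison, since 35 of the 39 Hox genes had too few for the test. Whether depth or low expression lay behind these counts was not tested. The settings tried on the 4 tested Hox genes and on the cluster and class sums, and the list counts and fold bounds without S15, were chosen after seeing the data.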
